A study of Mus musculus with 15 samples.

Results

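Small colonies of mouse cardiac fibroblast-like cells grown with PDGF-AB were compared with large colonies grown without it, both at passage 5, to ask which differences between small and large colonies remained once the small colonies had received the growth factor. The comparison rests on 6 of the 15 arrays of the study, chosen from the sample titles alone: 3 arrays of PDGF-AB-treated small colonies and 3 arrays of untreated control large colonies. A further 3 arrays of untreated small colonies at passage 5 gave the colony-size difference without the factor, and 6 arrays at passage 15 (3 treated small, 3 untreated large) gave the same contrast later in culture. All groups were labelled as C57BL/6 mice, male, with an age of 12 weeks, and all started from heart cells sorted as SCA1+PDGFRα+CD31-. PDGF-AB was given at 50 ng/ml, with no duration stated. Colony size and PDGF-AB differ together between the treated small and the large arrays and cannot be told apart from those 6 alone, and no untreated small colonies were labelled at passage 15. Nothing in the labels ties the 3 arrays of a group to different dishes or mice, so every p-value here is set against the scatter among arrays alone, part or all of which may be technical. Samples were bulk RNA, in which fewer cells of a type and less RNA per cell cannot be told apart.

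Colony-forming unit fibroblasts are stromal cells that attach to plastic and grow into colonies from single founders, and the size of a colony reflects how far its founder and progeny have divided. In the heart such cells are found among the interstitial and perivascular fibroblasts that express PDGF receptor alpha. PDGF-AB is a dimer of the A and B chains that brings receptor alpha and beta chains together, and the activated receptors signal through the ERK and PI3-kinase pathways to immediate early genes and the cell cycle.

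Values are deposited log2 intensities, so a difference of 1 is a 2-fold change, and the tested table held 19938 genes. Array medians ran from 5.59 to 5.72 and lower quartiles from 4.06 to 4.23, so values near 4 are dim. Arrays of one group correlated at 0.997 to 0.998 across genes and treated small with large arrays at 0.978 to 0.979, and none of the 9 arrays of passage 5 stood apart from its group. The signal went against the sex label: Xist, the transcript that silences an X chromosome in females, read 8.93 to 10.74 in the 6 arrays, while 4 Y-linked genes read 2.32 to 3.31. Xist was also higher in treated small (10.69, 10.74 and 10.71) than in large colonies (9.54, 8.93 and 9.32), a difference of 1.45 (adjusted p = 4.1e-07, limma). Whether the groups differed in sex or in X inactivation was not tested.

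A gene was called when its Benjamini-Hochberg adjusted p from limma was under 0.05. Between treated small and large colonies 7110 genes were called (35.7% of those tested), 2946 higher (14.8%) and 4164 lower (20.9%) in treated small. Counts within the gene lists below are to be read against these shares. At least 2-fold differences numbered 726 (3.64%), of which 323 were higher (1.62%) and 403 lower (2.02%). The arrays of the 2 groups did not overlap for 8753 genes (43.9%). The median difference over all genes was -0.0052 and the median size 0.133.

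Untreated small colonies differed from large ones in 7216 genes (36.2%; 18% higher and 18.2% lower), and 4423 of these (61.3%) remained called in the same direction with PDGF-AB. The treated and untreated contrasts share the 3 large arrays, so this is a count and not a test of overlap. Within small colonies 5772 genes (28.9%) differed between treated and untreated arrays, 10.7% upward and 18.2% downward with PDGF-AB. Treated and untreated arrays may also differ by culture, which cannot be told apart from PDGF-AB here. Rises, falls and responses with PDGF-AB in this text mean this difference between arrays. Of the 4423 genes, 2727 had no called response to PDGF-AB within small colonies, 895 narrowed and 801 widened. Another 1527 (21.2%) closed, which here means that treated small arrays had moved toward the large ones and the remaining difference was not called. Closing took away mostly excess: 1039 closed genes had been higher in untreated small than in large colonies and 488 lower. In 300 genes the sign reversed, and 966 were no longer called with no called response. Closed does not mean equal. The 95% interval of the remaining difference stayed within 0.5 of 0 for 1514 of the 1527 closed genes. Their median untreated size was only 0.35, however, so that band is wider than most of the starting differences. It therefore cannot show that these genes became equal to large colonies.

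**Figure D1:**
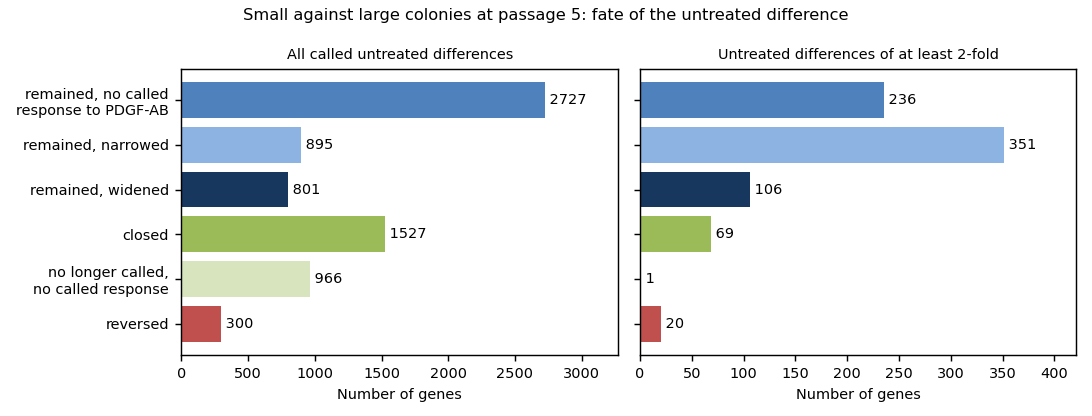
Number of genes by what became of the untreated small-minus-large difference after PDGF-AB, for all 7216 called differences (left) and for the 783 of at least 2-fold (right). Genes that remained without a called response make up the longest bar on the left (2727), and narrowed genes the longest on the right (351).

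Large differences mostly stayed called, but a call asks only for an adjusted p under 0.05, which a large starting difference favours. By size the largest class was narrowed, with 351 genes (44.8%). Of 783 untreated differences of at least 2-fold (3.93% of genes tested), 693 (88.5%) remained called in the same direction, 479 still at 2-fold or more and 214 below it. Only 70 were no longer called and 20 reversed. New differences also appeared with PDGF-AB. In 1522 genes, 514 higher and 1008 lower, no untreated difference was called, while the treated difference and a response in its direction were. These are the genes meant by only after PDGF-AB, and 30 reached 2-fold. Another 865 genes, 404 higher and 461 lower, were called against large colonies with PDGF-AB only, but without a called response in that direction. None of the 865 reached 2-fold.

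**Figure D2:**
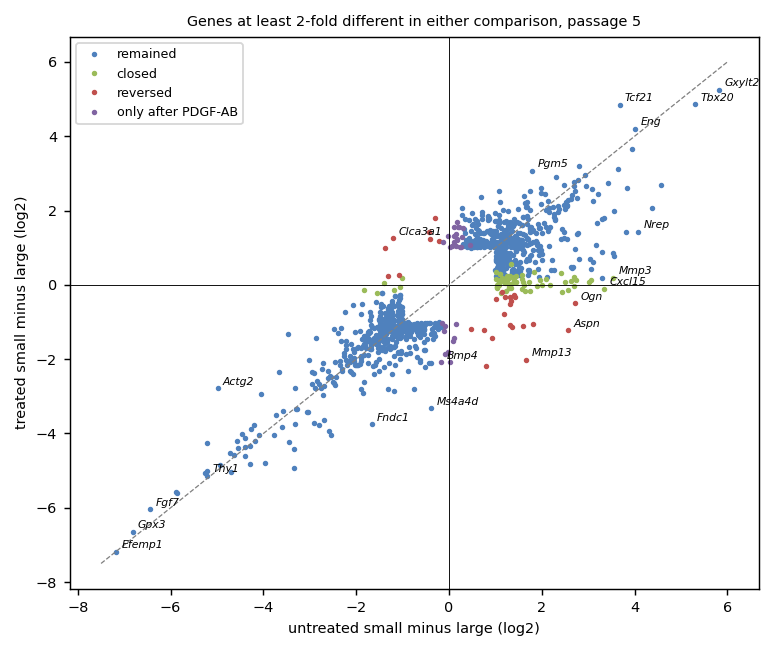
Difference from large colonies at passage 5 without (x axis) and with (y axis) PDGF-AB, both log2, for genes at least 2-fold different in either; the axes share the large arrays, and the dashed line marks equal differences. The extremes (Efemp1 at -7.17 and -7.18, Gxylt2 at 5.81 and 5.25) lie near the line, while genes no longer called (green), such as Mmp3 (3.53 and 0.18), lie along the horizontal axis.

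The genes furthest below large colonies included Efemp1, Gpx3, Fgf7 and Thy1, whose treated levels lay toward the dim end of the scale. Efemp1, which encodes the elastic fibre protein fibulin-3, read 11.43, 11.34 and 11.31 in large colonies and 4.25, 4.13 and 4.16 in treated small ones (difference -7.18, adjusted p = 6.7e-20, limma). Untreated small colonies read 4.18, 4.07 and 4.31, so the treated arrays lay among the untreated ones and the response was -0.01. Gpx3, a secreted glutathione peroxidase, read 11.53, 11.35 and 11.53 in large and 4.89, 4.82 and 4.74 in treated small colonies (-6.65, adjusted p = 4.07e-17). Because the treated levels of both genes are close to the arrays' lower quartiles, their folds depend on background.

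Fgf7, a fibroblast growth factor that acts on epithelia, read 10.74, 10.72 and 10.84 in large against 4.70, 4.54 and 4.93 in treated small colonies (-6.04, adjusted p = 1.03e-16). PDGF-AB raised it by 0.40 (adjusted p = 0.0067), a small part of the gap. Thy1, a surface glycoprotein used to mark stromal cells, read 10.29, 10.39 and 10.31 in large and 5.20, 5.07 and 5.28 in treated small colonies (-5.14, adjusted p = 2.02e-17). Its untreated values, 4.99, 5.08 and 5.25, overlapped the treated ones. Glipr1, a secreted cysteine-rich protein, was well above the dim range in every group, at 11.99, 12.00 and 11.95 in large and 6.31, 6.44 and 6.37 in treated small colonies, a 48.8-fold difference (adjusted p = 4.7e-18). Aldh1a3 (-5.58), which makes retinoic acid, the cytokine Tnfsf15 (-5.06) and the actin-associated Limch1 (-5.03) completed the 8 largest deficits, which were chosen among genes whose arrays do not overlap.

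Among the genes furthest above large colonies were transcription factors and surface proteins of the cardiac stroma. Gxylt2, a xylosyltransferase that acts on Notch-type repeats, read 10.36, 10.28 and 10.32 in treated small and 4.92, 5.29 and 5.02 in large colonies (5.25, adjusted p = 2.92e-16). Tbx20, a T-box factor of heart development, read 8.14, 8.16 and 8.18 in treated small colonies and 3.13, 3.56 and 3.22 in large ones (adjusted p = 1.77e-16). In large colonies Tbx20 was as dim as Y-linked genes or nearly so, and its fold is not printed. Tcf21, a factor of epicardial and fibroblast lineages, read 9.44, 9.66 and 9.57 against 4.79, 4.65 and 4.68 (4.85, adjusted p = 2.07e-16). PDGF-AB took Tcf21 further from large colonies, by 1.18 over the untreated small arrays (8.41, 8.38 and 8.35).

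Eng, which encodes the TGF-beta co-receptor endoglin, read 10.38, 10.39 and 10.30 in treated small and 6.39, 5.95 and 6.12 in large colonies, an 18.4-fold difference (adjusted p = 3.7e-15) with no called response to PDGF-AB (0.19, adjusted p = 0.15). Postn, the matrix protein periostin of activated fibroblasts, was the most intense of this set at 11.58, 11.64 and 11.67 against 8.58, 8.49 and 8.46 (8.71-fold, adjusted p = 2.2e-16). Treatment lowered Postn by 0.51 from the untreated small level, so the gap narrowed and did not close. Srpx2 (3.66), the dipeptidase Dpep1 (3.19) and Pgm5 (3.07), a protein of adherens junctions, were the other members of this set, chosen by the same rule.

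**Figure D3:**
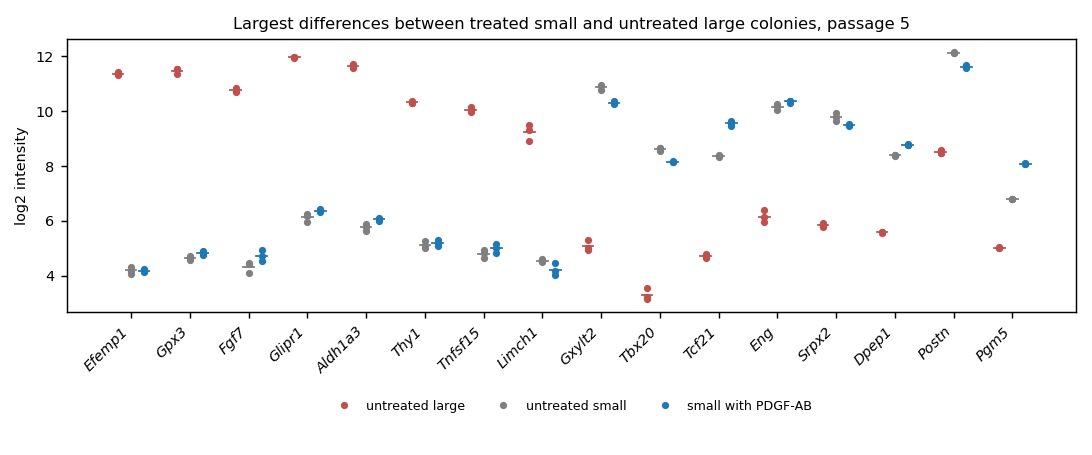
Log2 intensity in each array of passage 5 for the 8 genes furthest below and the 8 furthest above large colonies; points are arrays, bars are means of 3. For every gene the blue treated points lie on the side of the gray untreated small points, away from the red large points.

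Of 21 cardiac and epicardial factors 9 were higher and 4 lower in treated small colonies, with a list median of 0.0854, and 10 of the 13 untreated differences among them remained. Gata4 read 8.54, 8.49 and 8.50 in treated small and 5.93, 6.46 and 6.24 in large colonies (4.93-fold, adjusted p = 1.16e-11). Tbx5 went the other way, at 5.48, 5.47 and 5.42 against 9.43, 9.61 and 9.36 (-4.01, adjusted p = 1.82e-15). Osr1, a zinc-finger factor of mesenchyme, was 1.32 higher, Gata6 was 0.63 lower, and Wt1 did not pass the test (-0.00, 95% interval -0.19 to 0.19). The list therefore held large differences of both signs.

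Of 37 Hox genes, which record position along the body axis, 12 were lower and 2 higher, so the share called was close to the 35.7% of all genes, and 14 of the 16 untreated differences remained. The lower ones all belonged to the A and B clusters apart from Hoxd12 (-0.23), and were led by Hoxb9 at 6.32, 6.21 and 6.56 in treated small and 9.70, 9.77 and 9.61 in large colonies (-3.33, adjusted p = 9.44e-15). Hoxb5 (-1.49), Hoxb7 (-1.45) and Hoxa5 (-1.26) followed, and Hoxc4 (0.81) and Hoxa10 (0.55) were the 2 that were higher. PDGF-AB moved Hoxb9 by -0.03 (adjusted p = 0.81), which leaves no called response.

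Growth factor genes of several families were lower in treated small colonies, where 20.9% of all genes were called lower and 14.8% higher. In the list of IGF ligands, receptors and carriers 8 of 10 genes were lower and none higher, with a median of -0.95. Igfbp3, an IGF carrier, read 6.08, 6.13 and 5.96 in treated small against 10.13, 10.12 and 10.08 in large colonies (-4.05, adjusted p = 1.51e-15) and did not respond to PDGF-AB by the test (0.04). Igf2, a fetal growth factor, rose with PDGF-AB by 2.14 from 5.61, 5.50 and 5.65 to 7.81, 7.70 and 7.67, yet stayed 1.32 below the large arrays (9.03, 9.18 and 8.93). The carriers Igfbp4 (-1.43) and Igfbp5 (-0.69) were called only after PDGF-AB.

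Of 15 FGF and HGF genes 7 were lower and 1, Fgfr2, higher. Besides Fgf7 the deficits included Fgf2 at 7.47, 7.36 and 7.21 against 9.95, 9.90 and 10.01 (-2.61), Fgf10 (-1.26) and Fgf18 (-1.19). Of 20 Wnt ligands, inhibitors and targets 10 were lower and 3 higher. Rspo3, which amplifies Wnt signalling, fell further with PDGF-AB, to 5.48, 5.30 and 4.95 against 10.18, 10.12 and 10.21 in large colonies (-4.92, adjusted p = 9.74e-15). The secreted Wnt antagonists Frzb (-4.36) and Sfrp1 (-2.77) were also lower, whereas Sfrp2 (2.46) and Wnt5a (1.51) were higher.

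In the list of TGF-beta and BMP signalling 10 of 22 genes were lower and 6 higher. The lower ones included the ligands Bmp4 (-2.08) and Tgfb3 (-1.21), the BMP-responsive Id2 (-1.52) and the inhibitory Smad7 (-1.17) and Smad6 (-0.97). The higher ones included the receptors Tgfbr2 and Tgfbr3 (0.80 each) and the ligand Tgfb1 (0.82). Of 13 retinoic acid genes 5 were lower and 1 higher: the synthetic enzymes Aldh1a3 and Aldh1a2 (-4.84), the degrading enzyme Cyp26b1 (-2.34) and the receptor gene Rarb (-0.97) were among the lower ones. Of 14 prostaglandin genes 5 were lower and 1 higher, with the transporter Slco2a1 (-4.25), the synthase Ptges (-2.15) and the cyclooxygenase Ptgs2 (-1.06) below large colonies. List medians were -0.06 for retinoic acid and 0.01 for prostaglandin genes, and 7 and 8 genes were not called. Over all genes 14.8% were called higher and 20.9% lower. Antioxidant enzymes were lower for 10 of 19 genes and higher for 3, and both subunits of glutamate-cysteine ligase, Gclm (-0.98) and Gclc (-0.73), were among the 10.

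Over the 18 collagens and adhesive proteins 8 were higher and 5 lower in treated small colonies, against 14.8% and 20.9% of all genes. Col3a1, a fibrillar collagen, read 9.60, 9.55 and 9.52 against 7.43, 7.45 and 7.38 in large ones (2.13, adjusted p = 2.18e-13), Col1a1 was 1.53 and Col1a2 1.42 higher. Each of these 3 had been further above large colonies without PDGF-AB (2.55, 1.95 and 1.75). The lowest of the list was the fibril-associated Col14a1 (-4.38), while Fn1 read 13.01, 13.01 and 13.02 against 12.99, 12.91 and 12.91 and did not pass the test.

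Small leucine-rich proteoglycans, which coat collagen fibrils, were lower for 6 of 11 genes and higher for none (median -0.50). Decorin (Dcn) read 10.28, 10.32 and 10.26 in treated small, 11.26, 11.26 and 11.32 in untreated small and 12.51, 12.44 and 12.40 in large colonies. Its difference from large colonies widened with PDGF-AB from -1.17 to -2.16 (adjusted p = 9.44e-15). Lumican (Lum, -0.44 to -2.11) and Prelp (-2.14 to -2.32) widened too, and Bgn did not pass the test (0.00, 95% interval -0.10 to 0.10). Basement membrane genes were higher for 9 of 14 and lower for 2, led by Nid2 (2.16), Lama4 (1.43) and Lamb1 (1.07). Elastic fibre and crosslinking genes were higher for 9 of 18 and lower for 4, with Ltbp4 (2.42) and Loxl1 (2.12) above and Efemp1, Mfap5 (-1.50) and Mfap2 (-1.15) below large colonies.

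The PDGF genes themselves all passed the test, in both directions. Pdgfc, a ligand of receptor alpha, read 9.74, 9.66 and 9.56 in treated small and 8.04, 8.06 and 8.03 in large colonies (1.61, adjusted p = 4.05e-13), as high as in untreated small colonies (9.61, 9.60 and 9.64). Pdgfd, a ligand of receptor beta, read 5.46, 5.43 and 5.34 against 7.60, 7.74 and 7.42 (-2.18, adjusted p = 3.06e-12). Pdgfra and Pdgfrb showed no called difference between untreated small and large colonies (0.08 and -0.06). With PDGF-AB they were lower, Pdgfra by 0.30 (6.23, 6.39 and 6.20 against 6.62, 6.45 and 6.67, adjusted p = 0.00841) and Pdgfrb by 0.25 (adjusted p = 0.00249). The A chain gene Pdgfa was 0.23 higher and the B chain gene Pdgfb 0.42 lower.

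Immediate early genes, which growth factor signals induce, were higher in treated small colonies for 13 of 18 and lower for 2 (median 0.70). Fos read 8.99, 8.96 and 8.87 in treated small, 8.08, 8.10 and 7.79 in untreated small and 7.41, 7.41 and 7.42 in large colonies, so 0.57 of a difference of 1.52 was present before PDGF-AB. Zfp36, which destabilises mRNA, followed the same order at 9.57, 9.69 and 9.74, then 8.60, 8.53 and 8.53, then 8.01, 8.20 and 7.94 (1.62, adjusted p = 1.47e-11). Fosl1 was 1.70 higher with no called response. Egr1 was 0.74 and Junb 0.78 higher, while Klf4 (-0.52) and Klf6 (-0.21) were the 2 lower genes. Of 12 genes that feed back on ERK 4 were higher and 4 lower, with Dusp4, a phosphatase of ERK, 1.47 below large colonies.

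Genes of mitosis gave the clearest closing. All 19 tested were higher in untreated small than in large colonies (median 1.21) and all 19 fell with PDGF-AB (median -1.15). Against large colonies 13 of the 19 closed, 4 reversed and 2 remained, and the median of the treated difference was 0.07. Plk1, a mitotic kinase, read 7.59, 7.61 and 7.61 in untreated small, 6.06, 6.21 and 5.98 in treated small and 6.01, 6.18 and 5.82 in large colonies. Treated and large arrays of Plk1 overlapped, and the difference of 0.08 had a 95% interval of -0.09 to 0.25. Bub1, a spindle checkpoint kinase, behaved alike, at 4.57, 4.78 and 4.37 against 4.68, 4.54 and 4.29. These Bub1 levels are close to the arrays' lower quartiles, which limits what its closing shows.

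Mki67, a proliferation marker, read 6.71 in all 3 untreated small arrays, 5.68, 5.66 and 5.47 in treated small and 5.37, 5.43 and 5.43 in large colonies (0.19, adjusted p = 0.113). Fitted on the 9 arrays of passage 5 alone its adjusted p was 0.0401, and without treated replicate 3 it was 0.0499, so Mki67 lay at the edge of the threshold. The cyclins Ccna2 (0.35) and Ccnb2 (0.27) remained higher, and Tpx2 (-0.63), Kif11 (-0.44), Nusap1 (-0.38) and Top2a (-0.33) ended below large colonies. Without treated replicate 3 the counts were 4 higher and 3 lower of 19, and without any other treated or large array 1 higher and 3 to 6 lower. Over all genes tested, for comparison, 14.8% were called higher and 20.9% lower.

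Of 22 DNA replication genes 8 reversed from above to below the large level, 6 closed, 3 remained and 3 were lower only after PDGF-AB. In all, 14 were higher and 3 lower in untreated small colonies (median 0.43), 20 fell with PDGF-AB, and 14 were then lower than in large colonies and none higher (median -0.27). Mcm7, of the replicative helicase, read 7.62, 7.77 and 7.73 in untreated small, 7.05, 6.85 and 7.07 in large and 6.28, 6.40 and 6.48 in treated small colonies. The treated arrays of Mcm7 all lay below the large ones (-0.60, adjusted p = 1.06e-05). Rrm2, of ribonucleotide reductase, did not reverse: it was already 0.61 below large colonies without PDGF-AB and widened to 7.51, 7.38 and 7.55 against 8.52, 8.47 and 8.50 (-1.02). Of 9 CDK inhibitor and D cyclin genes 2 were higher, 2 lower and 5 not called in treated small against large colonies. Ccnd1, the D cyclin that growth factors induce, was 0.55 higher and Ccnd3 0.48 lower. The inhibitor gene Cdkn1b was 0.48 higher and Cdkn2b 0.40 lower. Without treated replicate 3 the count of lower replication genes was 10.

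Interferon-response genes were another excess that fell with PDGF-AB. Of 20 tested, 16 were higher in untreated small colonies and none lower (median 1.24), and 18 fell with PDGF-AB (median -1.19). Afterwards 5 were still higher, 1 was lower and 11 had closed, with a median of 0.10 against large colonies. Leaving out 1 treated or large array gave 4 to 7 higher. To show which of these genes carry a textbook interferon element, RefSeq promoters (GRCm38.p6, the 250 bases before the annotated start) were searched on both strands for the interferon-stimulated response element, GAAANNGAAA. It was present in 7 of the 15 list members with a promoter entry and in 3.40% of the 15614 tested genes with one. The 7 were Bst2, Cxcl10, Ifit1, Ifit3, Oas1a, Rsad2 and Stat2.

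The 4 promoters shown read in the orientation of the gene, 2 of genes that stayed above large colonies (Ifit1 and Stat2) and 2 of genes that closed (Rsad2 and Bst2), with matches in capitals. A match written TTTCNNTTTC lies on the opposite strand, and matches that overlap run together. They lie at chr19:34640639-34640888 (+ strand, Ifit1), chr10:128270248-128270497 (+ strand, Stat2), chr12:26456453-26456702 (- strand, Rsad2) and chr8:71537473-71537722 (- strand, Bst2).
Ifit1: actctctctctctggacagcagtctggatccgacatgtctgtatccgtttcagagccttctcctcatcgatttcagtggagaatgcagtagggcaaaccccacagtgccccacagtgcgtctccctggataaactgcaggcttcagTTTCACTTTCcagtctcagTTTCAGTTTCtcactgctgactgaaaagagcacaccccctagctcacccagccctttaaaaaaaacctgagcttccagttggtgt
Stat2: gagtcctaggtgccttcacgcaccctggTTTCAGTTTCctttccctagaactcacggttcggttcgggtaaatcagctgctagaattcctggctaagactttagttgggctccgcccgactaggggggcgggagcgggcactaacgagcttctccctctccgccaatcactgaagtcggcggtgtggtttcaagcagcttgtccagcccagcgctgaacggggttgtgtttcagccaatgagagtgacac
Rsad2: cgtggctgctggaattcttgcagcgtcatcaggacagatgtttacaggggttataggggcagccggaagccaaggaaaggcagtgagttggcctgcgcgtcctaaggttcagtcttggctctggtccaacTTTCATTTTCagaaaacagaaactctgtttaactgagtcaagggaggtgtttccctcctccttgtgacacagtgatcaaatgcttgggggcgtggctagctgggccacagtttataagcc
Bst2: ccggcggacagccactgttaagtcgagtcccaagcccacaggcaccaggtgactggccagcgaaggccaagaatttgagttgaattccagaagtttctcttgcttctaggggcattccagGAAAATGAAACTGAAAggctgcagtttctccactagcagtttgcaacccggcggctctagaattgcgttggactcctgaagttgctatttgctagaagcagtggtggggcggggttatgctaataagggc
Both outcomes thus occur among promoters that hold these letters, and a match is a description of the sequence and not a measured binding site.

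Ifit1, whose product binds viral RNA, read 8.94, 8.73 and 8.79 in untreated small, 6.17, 6.26 and 6.06 in treated small and 5.47, 5.28 and 5.13 in large colonies. Ifit1 fell by 2.65 from an untreated difference of 3.52, and 0.87 remained (adjusted p = 1.06e-06) with no overlap of arrays. Stat2, a transcription factor of the interferon pathway, kept 0.39 of 1.73. Bst2, which tethers budding virus, read 8.25, 8.27 and 8.05 in untreated small, then 7.04, 7.21 and 7.01 with PDGF-AB, overlapping the large arrays, which ran from 6.96 to 7.09 (0.07, 95% interval -0.09 to 0.23). Rsad2, the antiviral protein viperin, kept 0.14 of 0.84 and did not pass the test. Irf7, a master factor of the response, read 5.84, 5.82 and 5.68 in treated small and 5.83, 5.80 and 5.71 in large colonies, and Rtp4 kept the largest excess (1.08). Ifit2 was the single lower gene (-0.80), and 2 genes were lower without treated replicate 1 or large replicate 1.

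Cholesterol synthesis genes were higher in untreated small colonies for 16 of 16 (median 0.51), and 13 fell with PDGF-AB. Against large colonies 6 remained higher, 6 closed and 2 reversed (median 0.07). Sc5d read 9.73, 9.73 and 9.66 in treated small against 9.04, 9.08 and 9.04 in large colonies (0.66, adjusted p = 4.04e-08), and Fdft1 (0.52), Cyp51 (0.50) and the regulator Insig1 (0.47) also remained. Hmgcs1, the entry enzyme, read 7.72, 7.54 and 7.54 against 7.81, 7.59 and 7.65 and was closed, whereas Lss (-0.44) and Dhcr7 (-0.25) ended lower. The enzymes of one pathway therefore ended on both sides of the large level. The count of lower genes was 1 without large replicate 2, large replicate 3 or treated replicate 3. Leaving out 1 treated or large array gave 4 to 6 higher genes.

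**Figure D4:**
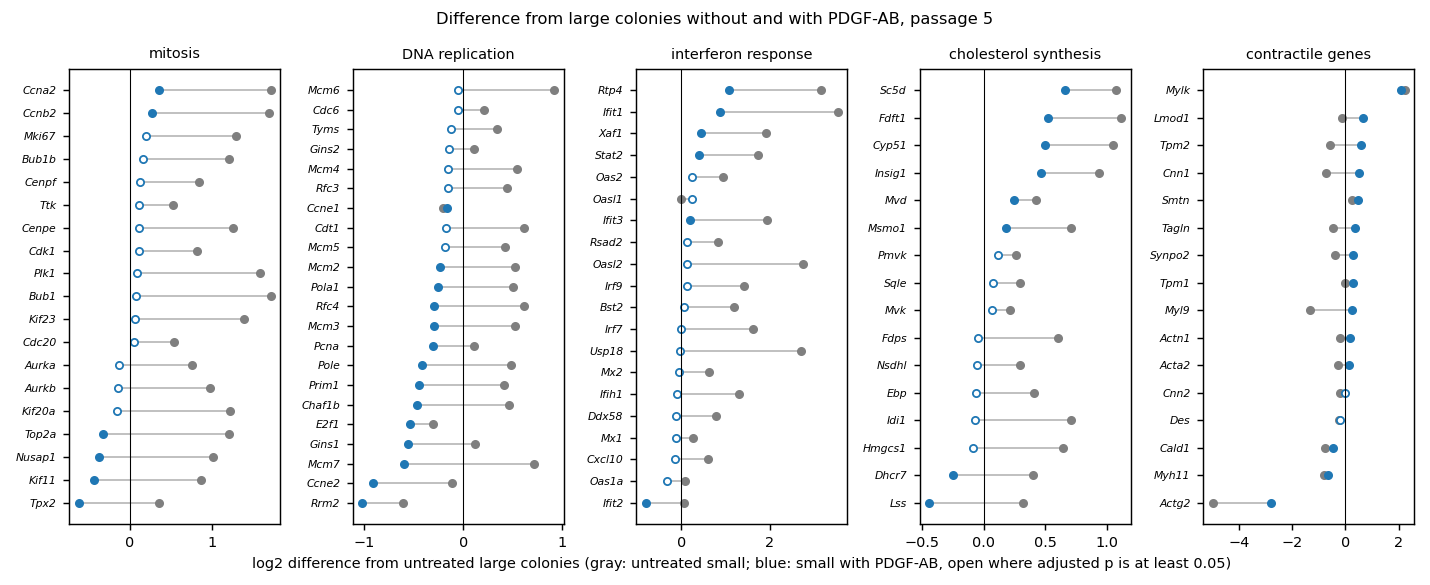
Log2 difference from large colonies for each tested member of 5 gene lists without PDGF-AB (gray) and with it (blue, open where the adjusted p was at least 0.05). In mitosis all 19 gray points are right of 0 while the blue points gather around 0, in DNA replication all 22 blue points lie left of 0, and in the contractile list 13 genes moved to the right.

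The same motif count was made for the other lists, on the same 250 bases. The E2F site (TTTCGCGC or TTTGGCGC) was in 4 of 17 DNA replication promoters and 1.07% of all, and the cell cycle homology region (TTTGAA) in 6 of 15 mitosis promoters and 15.7% of all. The CArG box was in 2 of 13 contractile promoters (1.45% of all) and the sterol regulatory element TCACNCCAC in 1 of 13 cholesterol promoters (1.20% of all). Bases further from the start were not searched.

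The 6 closed genes with the largest untreated differences were a protease, a chemokine, a drug-metabolising enzyme, a lipid carrier and 2 interferon-response genes. Mmp3, the protease stromelysin, read 9.07, 9.31 and 9.30 in untreated small, 5.91, 5.87 and 5.86 in treated small and 5.64, 5.79 and 5.66 in large colonies. Mmp3 thus fell by 3.35 with PDGF-AB, and what was left was 0.18 (adjusted p = 0.187, 95% interval -0.03 to 0.40), although the treated arrays still all lay above the large ones. Cxcl15 fell from 7.08, 7.19 and 6.94 to 3.72, 3.48 and 3.69, against 3.55, 3.85 and 3.80 in large colonies, a level that is dim on these arrays. Apod, a lipid carrier, fell from 7.96, 7.94 and 7.98 to 4.79, 5.13 and 5.17 against 4.87, 5.06 and 4.92. Without treated replicate 1 the difference left in Apod was called (0.20, adjusted p = 0.0285). Fmo4, Oasl2 and Usp18 fell by 2.93, 2.61 and 2.73, and their arrays overlapped those of large colonies.

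Reversal was led by a protease and a small proteoglycan. Mmp13, a collagenase, read 8.30, 8.04 and 8.26 in untreated small, 6.61, 6.57 and 6.43 in large and 4.53, 4.46 and 4.57 in treated small colonies. It went from 1.67 above large colonies to 2.02 below (adjusted p = 5.49e-12). Aspn, asporin, went from 2.56 above to 1.23 below, ending at 3.43, 3.54 and 3.26 against 4.77, 4.52 and 4.63 in large colonies, where values are dim. The related membrane proteins Tmem176a and Tmem176b went from 1.36 and 1.60 above to 1.15 and 1.11 below, and Mboat1 from 1.31 above to 1.08 below. Clca3a1 went the opposite way, from 7.46, 7.48 and 7.18 in untreated small to 9.77, 9.87 and 9.87 in treated small colonies, with large colonies between at 8.66, 8.54 and 8.54.

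Contractile genes rose with PDGF-AB for 13 of 16 members, and 7 of the 16 reversed from below to above the large level. Before treatment 12 were lower and 2 higher in untreated small than in large colonies (median -0.32). None fell with PDGF-AB, and afterwards 11 were higher and 3 lower than in large colonies (median 0.25). Tpm2, a tropomyosin, read 8.42, 8.53 and 8.47 in untreated small, 9.10, 9.07 and 9.01 in large and 9.66, 9.65 and 9.64 in treated small colonies (0.59, adjusted p = 1.73e-07). Cnn1 (0.51), Tagln (0.38) and the myosin light chain Myl9 (0.24) also passed from below to above the large level. Myl9 moved by 1.56. Acta2, smooth muscle actin, ended 0.15 higher (12.73, 12.75 and 12.70 against 12.59, 12.58 and 12.58, adjusted p = 0.0195). That call was lost without large replicate 3 (adjusted p = 0.0524) or treated replicate 2 (0.0737). Actg2, enteric smooth muscle actin, rose from 6.30, 6.29 and 6.22 to 8.45, 8.48 and 8.49 but stayed 2.79 below large colonies (11.26, 11.27 and 11.26). Mylk, myosin light chain kinase, was higher in small colonies with or without PDGF-AB (2.09 and 2.23).

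Differences called only after PDGF-AB were led by Bmp4, a BMP ligand. It read 8.68, 8.73 and 8.62 in treated small against 10.71, 10.83 and 10.74 in large colonies (4.24-fold lower, adjusted p = 7.19e-13), while untreated small colonies lay near the large level at 10.59, 10.55 and 10.63. Plxdc2, a membrane protein, read 8.67, 8.68 and 8.63 against 10.51, 10.52 and 10.53 in large colonies (-1.86), with untreated small colonies at 10.45, 10.41 and 10.40. The steroid dehydrogenase Akr1c14 (-1.81) and the uroplakin Upk3b (-1.50) showed the same shape. Rtn2 (1.57) and Ldb3 (1.55), a protein of muscle Z-discs, were the named genes that rose above large colonies in this class. None of these 6 had been called between untreated small and large colonies.

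Among differences that widened, Ms4a4d fell with PDGF-AB by 2.94 to 4.31, 4.56 and 4.27, against 7.31, 7.27 and 7.36 in untreated small and 7.77, 7.83 and 7.49 in large colonies. Most of its difference of -3.32 therefore came with the treated arrays. Fndc1, a fibronectin-domain protein, read 5.38, 5.42 and 5.47 in treated small, 7.56, 7.56 and 7.43 in untreated small and 9.26, 9.20 and 9.08 in large colonies (-3.76, adjusted p = 1.06e-16). Fabp7 (-2.80), the neurotrophic Ndnf (-2.21) and the zinc-finger factor Bnc1 (-2.10) widened downward and Zic2 (2.07) upward. Among narrowed differences Npy4r, a neuropeptide receptor, fell from 8.45, 8.53 and 8.64 to 5.78, 5.73 and 5.72 and kept 0.76 over large colonies (4.88, 5.01 and 5.05). Nrep kept 1.43 of 4.07, and Ifi205, an interferon-inducible gene, 0.63 of 3.10. Ifi203 kept 0.41 of 3.06. Anxa8 kept only 0.18 of 3.30 (adjusted p = 0.0339, limma), about as much as Mmp3, which counted as closed. The call of Anxa8 was lost without large replicate 2 (adjusted p = 0.145) or treated replicate 1 (0.105), among others. Narrowed and closed genes are thus split by the threshold and not by the size left.

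Markers of other cell types were mostly dim, and their counts are to be read against the 35.7% called among all genes. Of 10 endothelial markers 1 was called, Tek (-0.29, adjusted p = 0.00895, lost without treated replicate 1 at 0.0565), and Pecam1, which encodes CD31, read 4.40, 4.46 and 4.50 in treated small and 4.37, 4.56 and 4.40 in large colonies. The mean level over the 10 was 4.73 to 4.91 in treated small and 4.90 to 4.99 in large arrays. Of 11 macrophage and leukocyte markers 3 were higher and 1 lower (array means 5.09 to 5.16 and 5.04 to 5.10), and the pan-leukocyte gene Ptprc differed by -0.06. None of 4 Schwann cell markers was called, 2 of 8 mesothelial markers were lower, and 3 of 6 adipocyte markers were lower, with Pparg at -0.73.

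Of 8 pericyte markers 2 were lower (1 without any treated or large array) and 2 higher: Rgs5 read 4.79, 4.60 and 4.75 in treated small and 8.49, 8.46 and 8.32 in large colonies (-3.71, adjusted p = 1.06e-16), whereas Cspg4 (1.40) and Notch3 (1.33) were higher. Of 10 cardiomyocyte genes only Tnnt2, cardiac troponin T, was called, at 10.44, 10.37 and 10.34 against 7.98, 8.00 and 7.99 (5.26-fold higher, adjusted p = 1.76e-15), while Myh6, Actc1, Tnni3 and Ttn differed by 0.10, 0.15, 0.05 and 0.00. The 10 fibroblast markers were clearly present, with array means of 8.80 to 8.81 in treated small and 9.03 to 9.08 in large colonies, but did not move together: 3 were higher (Tcf21, Col1a1 and Col1a2) and 5 lower, Thy1 most. The part of other cell types in these results was not tested.

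The passage 15 arrays gave the same contrast from other arrays, with size and treatment again differing together; all 15 arrays share the fit's estimate of spread. Of the 726 genes at least 2-fold different at passage 5, 561 (77.3%) were called in the same direction at passage 15, 83 in the opposite direction and 82 not called, and 320 were at least 2-fold in the same direction (4.64% of all genes were 2-fold at passage 15). For all 7110 called genes the share in the same direction was 54.6%, with 949 opposite and 2282 not called. Over all tested genes 29.2% were called higher and 24.2% lower at passage 15, and 53.4% in either direction. The same-direction share is to be read against the shares in a single direction and not against the 53.4%. The difference itself changed between passages in 6865 genes (34.4%; 18.6% upward and 15.9% downward), by the test of the interaction. Gpx3 (-6.65 and -6.90), Fgf7 (-6.04 and -6.19) and Thy1 (-5.14 and -5.14) kept their size, with no called change between passages.

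Other named genes did not hold. Tcf21 went from 4.85 to 0.29, Dpep1 from 3.19 to -1.51 and Pgm5 from 3.07 to -4.05, and Efemp1 shrank from -7.18 to -3.38. Mitosis genes, closed at passage 5, were higher in treated small colonies for 12 of 19 and lower for 1 at passage 15 (median 0.46). Replication genes were lower for 14 of 22 at both passages, and contractile genes, 11 of 16 higher at passage 5, were lower for 9 and higher for none at passage 15. Mmp3, closed at passage 5, was 4.50 below large colonies at passage 15. The IGF list was lower for 8 of 10 genes at both passages, but at passage 15 the other 2 were higher. The difference changed between passages in 8 of the 10 by the interaction test.

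**Figure D5:**
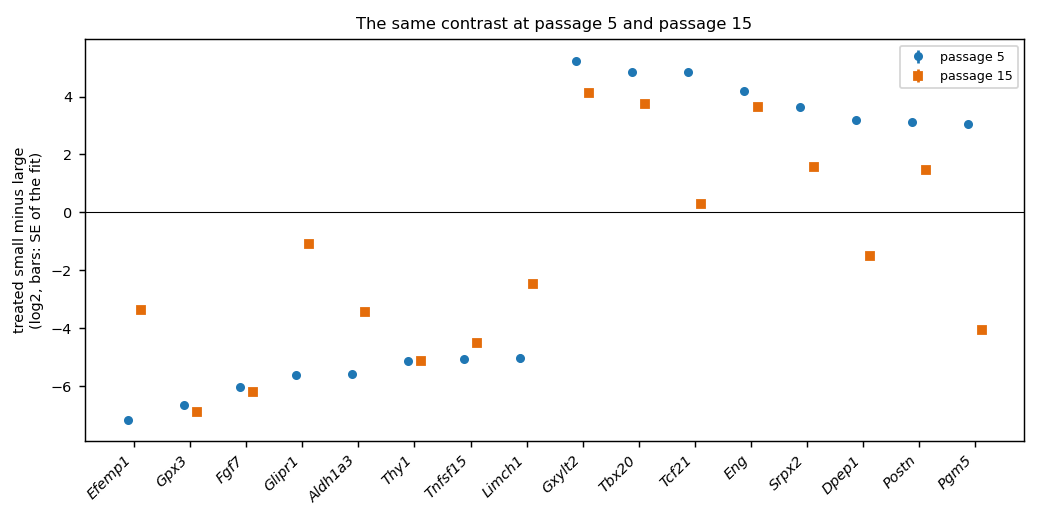
Treated small minus large difference (log2) at passage 5 (circles) and passage 15 (squares) for the 16 genes furthest from large colonies at passage 5; bars are standard errors of the fit and lie within the symbols. Gpx3, Fgf7 and Thy1 nearly coincide at both passages, and Dpep1 and Pgm5 change sign.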

How the data were processed

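The data were 15 arrays of total RNA, 3 in each of 5 groups taken from the sample titles. The authors deposited normalized log2 values per probe set of an Affymetrix array; the scale is read from the values, with near-equal array medians. RMA and limma are listed, unversioned, per the submitters' processing notes, and background settings are not given in the sources used here. Of 28853 probe sets 21789 named 1 gene, 1621 several and 5443 were not listed; the brightest probe set of each gene was kept, which left 19938 genes (21698 probe sets matched the GRCm38.p6 RefSeq table by gene ID). Ly6a and Cdkn1a had no probe set naming them alone and were not analysed here.

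Linear models were fitted over all 15 arrays with limma 3.58.1 in R 4.3.3 (10 residual and 5.80 prior degrees of freedom, median SE 0.0778), with moderated 2-sided tests and Benjamini-Hochberg adjustment over 19938 genes at 0.05. Other p-values and intervals come from this fit, and the script was tested on simulated data. Promoters and figures were handled in Python 3.11.15 with pandas 2.3.3 and matplotlib 3.10.9.

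Members, gene lists, classes and alternatives were chosen with earlier results of these data known. Named genes were the 8 largest differences in each direction with non-overlapping arrays, up to 6 in each class, up to 4 called members of each of 42 lists by adjusted p, and fixed genes; unnamed transcripts were left out of the first 2 parts. Other list members are named to show the rest of a list and were chosen after their values were seen. Of 602 list genes 573 were tested. Alternatives were 2 scalings, a level filter, probe set means, array weights, variance trends, subsets of arrays, a threshold of 0.01, the replicate number as a block and leaving out each array. Same-numbered arrays deviated together too little to pair them: correlations of deviations were 0.0849, -0.0218 and 0.110 between treated small and large colonies. For arrays, the number per group limits the precision.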

Additional observations from a re-analysis of the deposited data

Results flagged for a closer look

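The contrast of treated small with large colonies differed between passage 5 and passage 15 in the genes below, by the interaction test (limma, adjusted p under 0.05 in each). Values are the log2 difference at passage 15 minus that at passage 5. Size and PDGF-AB differ together at both passages, so the change cannot be assigned to either. Among the largest differences at passage 5, Pgm5 moved by -7.11, Dpep1 by -4.70, Tcf21 by -4.57, Srpx2 by -2.10, Postn by -1.65, Gxylt2 by -1.12, Tbx20 by -1.10 and Eng by -0.57. In large colonies Tbx20 was as dim as Y-linked genes or nearly so at both passages, so its size depends on background. The lower genes moved toward large colonies: Glipr1 by 4.50, Efemp1 by 3.80, Limch1 by 2.57, Aldh1a3 by 2.13 and Tnfsf15 by 0.55. Of the PDGF genes Pdgfd moved by 1.91, Pdgfb by 0.57, Pdgfra by -1.91, Pdgfc by -0.25 and Pdgfrb by -0.25. Mki67 moved by 0.59, Tbx5 by 0.42, Pecam1 by 0.30, Acta2 by -0.37, Col1a1 by -0.87 and Xist by -0.75.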

How the results depend on the processing

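Of the 8 counts over all genes (called, 2-fold, remained, closed, reversed, only after PDGF-AB, also at passage 15, changed between passages) none moved by more than 1.5 times except at a threshold of 0.01, where 136 differences reversed (300 at 0.05) and 4360 changed between passages (6865). Leaving out 1 array gave 6297 to 7115 genes called, 717 to 736 of them 2-fold, 3965 to 4197 remained, 1111 to 1727 closed, 205 to 282 reversed, 1212 to 1569 only after PDGF-AB, 3490 to 3767 also at passage 15 and 5756 to 7229 changed between passages. With the replicate number as a block 7102 genes were called and 4401 remained, and the numbers are not taken as pairs. Higher genes were 41.4% of calls, 45.8% after centring arrays and 48.2% after cyclic loess. Of 182 named genes 7 lost their call in some setting (Acta2, Anxa8, Cd52, Fabp4, Ifi203, Kcnj8 and Tek), 2 gained one (Apod and Mki67), and 3 that were not called changed sign: leaving out 1 array gave -0.011 to 0.1169 for Cdkn2a, -0.0282 to 0.0661 for Pecam1 (-0.01 after cyclic loess) and -0.1544 to 0.0951 for Usp18. The list medians of p53 targets, ERK feedback genes, prostaglandin genes and pericyte markers changed sign between scalings and are given no direction. Dim probe sets, near 4 on the log2 scale, limit the size of the largest deficits.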

Other observations

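Other lists held both higher and lower genes in treated small than in large colonies at passage 5, where 14.8% of all genes were called higher and 20.9% lower. Among semaphorins and their receptors 4 of 14 were higher and 5 lower: Sema3c read 4.51, 4.44 and 4.26 in treated small and 7.43, 7.07 and 7.30 in large colonies (-2.86, adjusted p = 5.17e-13, limma), Sema3d was 2.73 lower and the receptor gene Nrp1 1.53 lower, while Plxnd1 (1.30) and Nrp2 (1.35) were higher. Of 13 glycolysis and hypoxia genes 7 were higher and 4 lower, with Pdk1 (1.12), Bnip3 (1.10) and Ldha (0.74) above and Pfkp (-1.18) below. Of 9 complement and acute phase genes 5 were higher and 2 lower. Serping1, the C1 inhibitor, read 4.95, 5.08 and 4.90 against 8.83, 8.87 and 8.52, and ceruloplasmin (Cp) 8.64, 8.66 and 8.65 against 6.80, 6.80 and 6.70. Of 17 chemokines and cytokines 3 were higher and 4 lower, among them Cxcl12 (1.13) and Il33 (-1.27).

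Differences were uneven along the genome. Over genes above the median level, the median of treated small minus large colonies was -0.35 on chromosome 13 (374 genes), -0.25 on chromosome 17 (473 genes) and -0.23 on chromosome 19 (357 genes), against 0.25 on chromosome 12 (338 genes) and 0.19 on chromosome 4 (601 genes). The untreated small colonies gave -0.24, -0.20, -0.11, 0.21 and 0.02 on these chromosomes against the same large arrays, and passage 15 gave -0.27, -0.31, -0.22, 0.33 and 0.23. Treated minus untreated small arrays differed most on chromosomes 16 (-0.20, 317 genes), 4 (0.20), 7 (0.18, 731 genes) and 15 (-0.13, 410 genes). Each median is relative to that over all these genes. Whether the shifts between the small groups came with PDGF-AB or with the cultures was not tested. Chromosome copy number was not measured.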
